A study of Mus musculus with 4 samples.

Results

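The 9 non-clustered delta protocadherin genes examined here were Pcdh1, Pcdh7, Pcdh8, Pcdh9, Pcdh10, Pcdh17, Pcdh18, Pcdh19 and Pcdh20, chosen by name out of 34328 protein-coding and lncRNA genes of the RefSeq table on chromosomes 1 to 19 and X. Each was given a window of its RefSeq gene body plus 20 kb on both sides. The authors' lists of peaks of H3K27ac, histone H3 acetylated at lysine 27 and a mark of active promoters and enhancers, were read within these windows. The peaks came from chromatin immunoprecipitation and sequencing (ChIP-seq) of neural stem cell cultures derived from female mouse embryos at E14.5 (embryonic day), with C57BL/6 in the strain field. One culture was Smchd1 del/del, made by transduction with MSCV-Cre-puro, a retroviral vector for Cre and a puromycin cassette, with puromycin from 24 h on and harvest on day 7. The other was the Smchd1 control, an untransduced part of the line, titled Smchd1 fl/fl but given as Smchd1 del/fl in its genotype field, so that by this field it carried 1 deleted allele too. Both had the genotype Xist 129-KO/Xist WT-Cast, with a 129 maternal X bearing the mutant Xist deltaA allele and a paternal X of Castaneus origin. Each culture gave 1 ChIP library and 1 whole-cell-extract input library, so the deletion, the viral transduction and the selection cannot be told apart, and no difference has a replicate check. For the antibody, the labels hold a name for H3K27me3, whereas the titles give H3K27ac, which is used here. The control input has Smchd1 del/del in its genotype field, against its title.

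Delta protocadherins are single-gene members of the cadherin superfamily, with extracellular cadherin repeats that bind weakly between like molecules and a cytoplasmic tail that reaches the actin machinery. In the developing brain they mark sets of neurons and progenitors, and they act in cell sorting, axon growth and synapse formation. The delta-1 group (here Pcdh1, Pcdh7, Pcdh9) and the delta-2 group (Pcdh8, Pcdh10, Pcdh17, Pcdh18, Pcdh19) differ in the number of repeats and in tail motifs, and Pcdh20 is a related single gene. Unlike the tandem protocadherin clusters, which are a known class of Smchd1 targets, these genes stand apart from one another. The 9 members lay on chromosomes 3 (Pcdh10, Pcdh18), 5 (Pcdh7), 14 (Pcdh8, Pcdh9, Pcdh17, Pcdh20), 18 (Pcdh1) and X (Pcdh19).

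The promoters of 6 members are shown because they carry the contrast among these genes. Pcdh10, Pcdh18 and Pcdh19 had a peak within 1 kb of the start in both cultures. Pcdh17 had a peak 2.15 kb after the start in deleted cells only, and Pcdh8 had no peak at all. Pcdh7 had the 1 start, as used here, that lay inside a peak. Of the 300 bases shown, deleted peaks covered 68 at Pcdh10, 26 at Pcdh18 and 0 at Pcdh19, and control peaks covered 0 at each of these. Each promoter runs from 250 bases before to 50 bases after the gene start, read 5′ to 3′ on the gene's strand, from RefSeq on GRCm38.p6. Capitals mark CCAAT or its reverse complement ATTGG. Their positions are chr3:45378148-45378447 on the plus strand (Pcdh10), chr3:49757267-49757566 on the minus strand (Pcdh18), chrX:133688944-133689243 on the minus strand (Pcdh19), chr14:84443313-84443612 on the plus strand (Pcdh17), chr14:79771263-79771562 on the minus strand (Pcdh8) and chr5:57717831-57718130 on the plus strand (Pcdh7).
Pcdh10: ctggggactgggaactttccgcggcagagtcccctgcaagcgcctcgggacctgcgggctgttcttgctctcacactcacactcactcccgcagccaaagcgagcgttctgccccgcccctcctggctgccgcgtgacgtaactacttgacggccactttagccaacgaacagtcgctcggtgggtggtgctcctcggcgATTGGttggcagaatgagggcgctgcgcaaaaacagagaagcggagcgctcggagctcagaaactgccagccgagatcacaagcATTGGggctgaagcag
Pcdh18: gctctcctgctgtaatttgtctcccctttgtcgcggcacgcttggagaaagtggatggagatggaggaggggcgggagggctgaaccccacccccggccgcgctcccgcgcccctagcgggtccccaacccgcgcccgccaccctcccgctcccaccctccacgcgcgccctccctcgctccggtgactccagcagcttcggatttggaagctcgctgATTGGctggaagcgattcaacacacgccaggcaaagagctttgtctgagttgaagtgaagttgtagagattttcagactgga
Pcdh19: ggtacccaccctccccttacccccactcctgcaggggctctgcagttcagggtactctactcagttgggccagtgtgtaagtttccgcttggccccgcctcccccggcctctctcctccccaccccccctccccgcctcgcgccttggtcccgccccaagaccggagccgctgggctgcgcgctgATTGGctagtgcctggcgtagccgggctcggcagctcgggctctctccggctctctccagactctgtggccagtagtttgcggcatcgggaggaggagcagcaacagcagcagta
Pcdh17: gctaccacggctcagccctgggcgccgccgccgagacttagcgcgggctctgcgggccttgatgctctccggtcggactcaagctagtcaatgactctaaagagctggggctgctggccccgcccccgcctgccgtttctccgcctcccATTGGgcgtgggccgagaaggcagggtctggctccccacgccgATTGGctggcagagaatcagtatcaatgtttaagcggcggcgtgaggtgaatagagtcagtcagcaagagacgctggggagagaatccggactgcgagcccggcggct
Pcdh8: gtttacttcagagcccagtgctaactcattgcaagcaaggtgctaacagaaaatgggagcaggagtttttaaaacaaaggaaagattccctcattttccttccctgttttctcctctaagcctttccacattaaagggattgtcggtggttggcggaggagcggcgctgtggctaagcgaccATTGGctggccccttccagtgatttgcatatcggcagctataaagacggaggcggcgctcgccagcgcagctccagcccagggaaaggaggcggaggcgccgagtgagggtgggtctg
Pcdh7: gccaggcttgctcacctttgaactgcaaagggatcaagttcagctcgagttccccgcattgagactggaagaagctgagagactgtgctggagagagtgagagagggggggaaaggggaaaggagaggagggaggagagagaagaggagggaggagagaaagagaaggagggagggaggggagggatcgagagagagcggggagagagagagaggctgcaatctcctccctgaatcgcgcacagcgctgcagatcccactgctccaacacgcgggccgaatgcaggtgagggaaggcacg

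A promoter entry was found for 8 of the 9 members, all but Pcdh1. CCAAT, the word that the factor NF-Y binds, was searched on both strands and occurred in 7 of these 8 promoters, all but that of Pcdh7, against 39.6% of 17274 protein-coding promoters of the same length. In Pcdh8, Pcdh10, Pcdh17, Pcdh18 and Pcdh19, the delta-2 members, an ATTGG began shortly before the start: at -68 in Pcdh8, -65 in Pcdh19, -58 in Pcdh17, -50 in Pcdh10 and -32 in Pcdh18. Pcdh9 held CCAAT at -82 and Pcdh20 at -185. The longer word ATTGGCTGG or its reverse complement, chosen after these sequences had been read and containing ATTGG, stood in Pcdh8, Pcdh17 and Pcdh18, or 3 of 8, against 1.39% of all promoters. The GC box GGGCGG or CCGCCC was in 4 of 8 (Pcdh10, Pcdh17, Pcdh18, Pcdh19), against 46.9% of all promoters. TATAAA or its reverse complement TTTATA was found in Pcdh8 only, at -30, against 13.4% of all. The rate for the longer word is no test, because the word was taken from these promoters. For all words, the promoters compared were not matched for GC content (median 62.5% in members), and no difference was tested. These matches describe letters and carry no measurement of binding. GC content was 54.3% to 67.7% in the 7 members other than Pcdh20, which had 43.7% and 4 CpG dinucleotides, while the median over all promoters was 56.3% with 14 CpG.

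Facts of the whole lists bear on every count. Filtered ChIP depth was 54194233 tags in deleted and 42277672 in control cells, a ratio of 1.28, and peaks numbered 91557 in deleted and 63613 in control cells, a ratio of 1.44 (95% interval 1.42 to 1.45). In the deleted list 50.6% of peaks overlapped no control peak, and in the control list 24.3% overlapped no deleted peak. Peaks in both lists were found in the windows of 8 of 8 neural stem cell markers, 3 of 3 astrocyte, 2 of 3 oligodendrocyte, 5 of 7 neuron, 1 of 4 fibroblast, 2 of 3 microglia and 1 of 3 endothelial markers, and these windows can also hold neighbouring genes. Within 1 kb of the gene start, Sox2, Nes, Olig2, Fabp7 and Vim were acetylated in both lists, or 5 of the 6 neural stem cell markers with an entry, against 2 of 6 neuron markers. Over all protein-coding genes, 68.5% of windows and 49.8% of starts had peaks in both lists. Smchd1 itself had 4 deleted and 2 control peaks in its window, which does not test the loss of its floxed part.

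Acetylation was uneven across the family. Pcdh9, Pcdh1, Pcdh10 and Pcdh7 held nearly all of the peaks, Pcdh18 and Pcdh19 had 1 peak at the start in both cultures, Pcdh17 and Pcdh20 had 1 peak each in deleted cells and none in the control culture, and Pcdh8 had none in either. In all, 53 peaks of deleted cells (26.2 kb) and 45 of control cells (20.5 kb) lay in the windows, so deleted peaks were 1.18 times as many (0.777 to 1.79, exact binomial 95% interval for counting error only). This interval holds both 1 and the value of the whole lists. A peak in both lists was found at 6 of 9 members, against 68.5% of protein-coding gene windows. A peak in neither was found at 1 of 9, against 25.7%, in the deleted list only at 2 of 9, against 5.13%, and in the control list only at 0 of 9, against 0.726%. The windows compared were not matched to the members by peak number, and no difference from these rates was tested. Deleted peaks outnumbered control peaks at 5 of 9 members (Pcdh1, Pcdh9, Pcdh17, Pcdh19, Pcdh20), against 50.7% of such windows, and were fewer at 2 of 9 (Pcdh7, Pcdh10), against 9.15%. The median protein-coding window held 3 deleted and 2 control peaks.

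**Figure D1:**
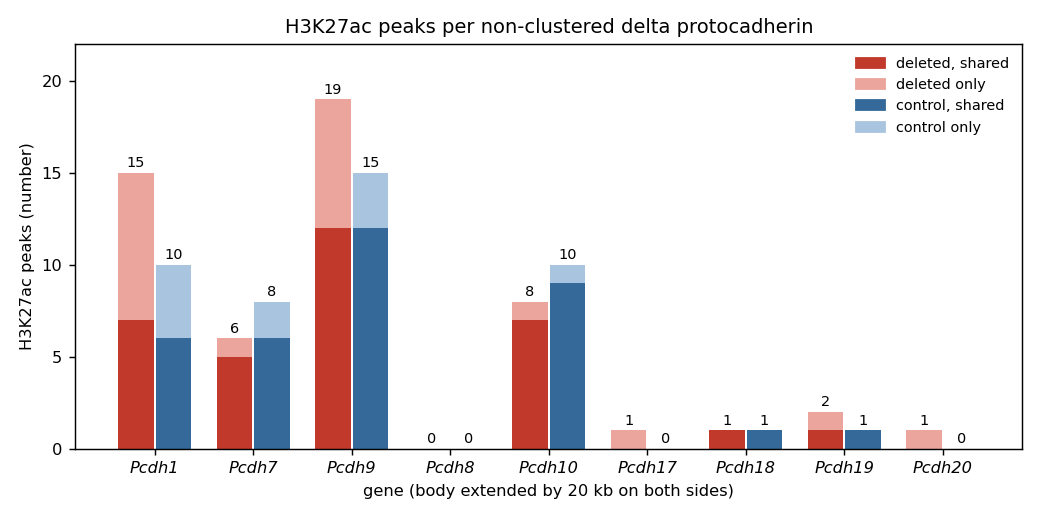
Number of H3K27ac peaks in the window of each member (gene body plus 20 kb on both sides), deleted culture left and control culture right, 1 library each. Dark bars are peaks that overlap a peak of the other list and pale bars peaks that do not, with the total printed on top. Pcdh9 leads with 19 deleted and 15 control peaks, and Pcdh8 has 0 in both.

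With an overlap of 1 base or more counted as shared, more peaks at these genes were shared than list-only in both cultures. Of the 53 deleted peaks 20, or 37.7% (24.8 to 52.1), overlapped no control peak, and 10 of the 45 control peaks, or 22.2% (11.2 to 37.1), met none of the deleted list. The shares of the whole lists were 50.6% for deleted and 24.3% for control peaks, both inside these intervals. The deleted-only share of the members had an interval wholly below the whole list's share in windows without extension (30.2%, 17.2 to 46.1), with 5 kb (35.3%, 22.4 to 49.9) or without Pcdh1 (31.6%, 17.5 to 48.7). It was 50.9% (27 of 53) when the other list had to cover at least 50% of the peak, against 60.3% of all deleted peaks. The whole list was not matched to the members by distance from gene starts. Its deleted-only share was 18.9% within 1 kb of protein-coding starts and 54.2% at 1 to 5 kb. Neighbouring peaks of 1 gene in 1 library are also not independent, so a difference from the whole list was not tested. List-only peaks were mostly below their list's median fold enrichment, 3.53 for deleted and 4.04 for control peaks. The 20 deleted-only peaks had a fold enrichment over their own input of 2.36 to 3.86 with a median of 3.02, and 4 of them, at Pcdh1, Pcdh9, Pcdh17 and Pcdh19, lay above 3.53. The 10 control-only peaks had 3.05 to 4.04 with a median of 3.45, and 0 lay above their list's median. The 33 shared deleted peaks had a median of 4.53 and the 35 shared control peaks 4.50. Fold enrichment is the authors' value within each library and is not scaled between libraries. At least 1 deleted-only peak was found at 7 of 9 members, against 61.6% of protein-coding windows, and at least 1 control-only peak at 4 of 9, against 39.8%.

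**Figure D2:**
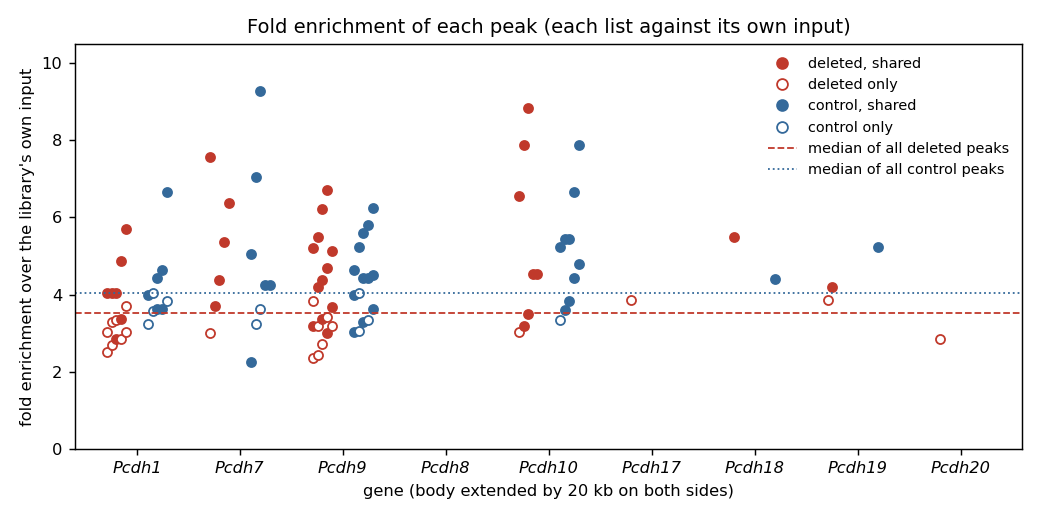
Fold enrichment over the library's own input (vertical axis) of each peak in the window of each member, deleted peaks left and control peaks right of each name. Filled points are shared peaks and open points list-only peaks, and the lines give the medians of all peaks, 3.53 (deleted, dashed) and 4.04 (control, dotted). The highest points are Pcdh10 (8.83, deleted) and Pcdh7 (9.28, control), and no open point passes 4.04.

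The same gene starts had peaks in both lists. Of the 8 members with an annotated start, 5 (Pcdh7, Pcdh9, Pcdh10, Pcdh18, Pcdh19) had a peak within 1 kb of it in the deleted list and the same 5 in the control list, where 55.0% and 50.7% of 17274 protein-coding gene starts had one. The start peak was thus in both lists at 5 of 8 members, against 49.8% of starts, in the deleted list only at 0 of 8, against 5.15%, and in the control list only at 0 of 8, against 0.828%. Each of the 11 deleted and 10 control peaks within 1 kb of a member's start overlapped a peak of the other list. The 0 list-only peaks allow a share of up to 27.3% of the deleted peaks and 30.0% of the control peaks, counting 3 peaks as the limit, and the shares over protein-coding starts were 18.9% and 4.69%. Over 1 to 5 kb from the start, 5 of 10 deleted peaks were list-only, against 54.2% of the deleted peaks at that distance from protein-coding starts, and 1 of 10 control peaks, against 25.6%.

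The start base itself was inside a peak at 1 of these 5 members, Pcdh7, in both lists, against 27.1% of protein-coding starts with a deleted peak nearby and 19.5% of those with a control peak nearby. At Pcdh7 this depends on the start used, because the RefSeq body begins upstream of it, at a base in no peak of either list. At the other 4 members the nearest peak edge lay 24 to 93 bases from it among deleted peaks and 67 to 154 bases from it among control peaks, in each case on the gene side. The summit of the strongest peak within 1 kb was downstream of the start at 3 of 5 members by the deleted list and at 2 of 5 by the control list, against 77.3% and 76.7% of such protein-coding starts.

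**Figure D3:**
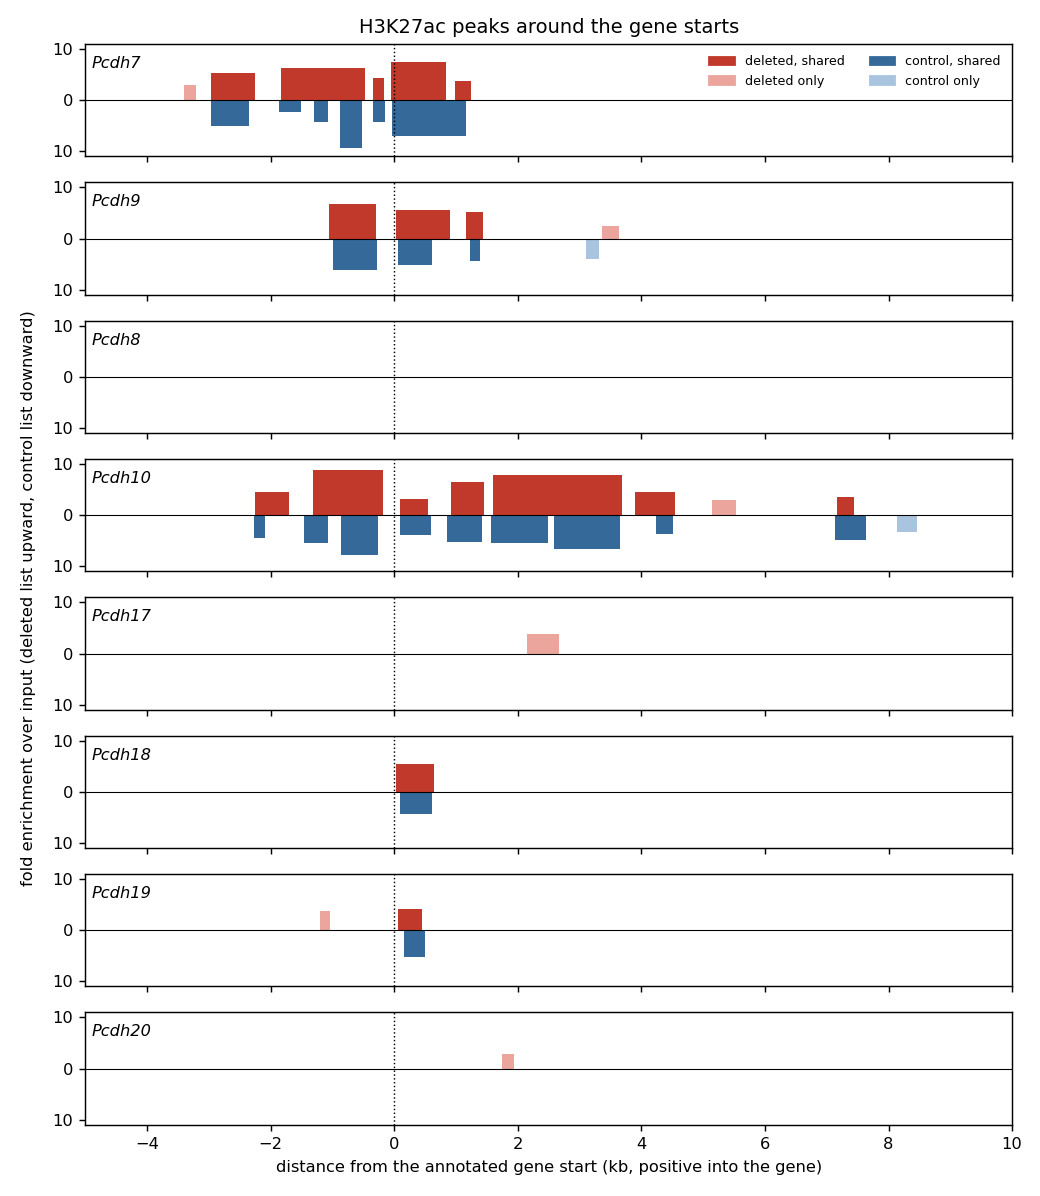
H3K27ac peaks of 8 members from 5 kb before to 10 kb after the annotated gene start (horizontal axis, distance in kb, dotted line at the start). Box width is peak width and box height fold enrichment over input, with deleted peaks above and control peaks below each baseline and list-only peaks in pale colour. The start falls in a gap between peaks at Pcdh9 and Pcdh10, at the edge of a peak at Pcdh18 and Pcdh19, and inside a peak at Pcdh7. That edge peak is the only one at Pcdh18, while at Pcdh19 the deleted list has a further peak upstream.

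Among the delta-1 genes, Pcdh9, a long gene active in the developing cortex, had the most peaks, in the longest window. Its 2.07 deleted and 1.63 control peaks per 100 kb were below the medians of protein-coding windows, 4.42 and 3.09. It lies on chromosome 14 from 93013700 to 93892834 (mm10), on the minus strand, with its start at 93890679. The window held 19 deleted peaks, 12 of them shared, and 15 control peaks, 12 of them shared, and every one lay inside the gene body. The strongest was just before the start in both lists, with its summit at -0.784 kb in deleted cells (fold enrichment 6.72, the 89.3rd percentile of its list) and at -0.684 kb in control cells (6.25, the 83.6th percentile), where negative values lie upstream. Because the RefSeq body reaches beyond this start, these peaks still count as inside it.

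Far from the start, Pcdh9 carried groups of peaks that recurred in both cultures. Peaks at most 1 kb apart in either list were joined into sites, a definition added after the data were seen, which gave 11 sites, 8 of them in both lists. The most remote strong site, at chr14:93415645-93417824 and about 473 to 475 kb into the gene, held 3 deleted and 3 control peaks, with highest fold enrichments of 6.21 and 5.60. Sites of both lists also lay about 476 to 478 kb (3.36 in deleted and 4.64 in control cells), 431 to 432 kb (4.20 and 4.42), 345 to 348 kb (4.37 and 4.50), 188 to 190 kb (5.21 and 5.80) and 105 to 106 kb (3.00 and 3.63) into the gene. Sites of the deleted list only lay at 367 kb (3.83) and 177 kb (3.19), and a site of the control list only at 349 kb (3.33), next to the site at 345 to 348 kb. No peak of either list fell in the remaining stretch from 478 kb to the far end. Exons are not in the gene table used here, so these sites are placed only as inside the gene.

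**Figure D4:**
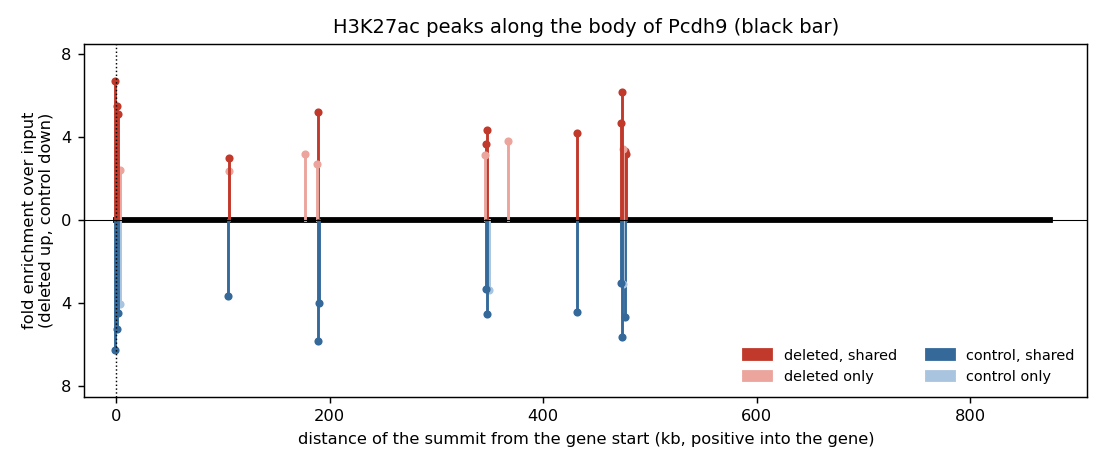
Peaks along the body of Pcdh9 (black bar), as distance of the summit from the gene start in kb (horizontal axis) and fold enrichment over input (vertical axis, deleted up and control down), with list-only peaks in pale colour. Both lists place peaks at the start and in groups near 105, 189, 347, 432 and 474 kb, and the part of the gene farther than 478 kb from the start has none.

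Pcdh7, a delta-1 gene whose tail binds the phosphatase inhibitor and histone-binding protein SET, was acetylated in a compact block around its start. It lies on chromosome 5 from 57716145 to 58133236, on the plus strand, with the start used here at 57718081. The RefSeq body thus begins upstream of this start. Its first base lay in no peak, and the next peaks began 97 bases (deleted) and 64 bases (control) after it. Of 6 deleted peaks 5 were shared, and of 8 control peaks 6. One site from -3.41 to 1.24 kb of the start held all 6 deleted peaks and 6 of the 8 control peaks, covering 3.61 kb and 2.96 kb. The strongest deleted peak was at 57718030 to 57718915 (fold enrichment 7.56, −log10 q 23.7), across the start. The strongest control peak was at 57717196 to 57717566 (9.28, −log10 q 28.1), upstream of the start used here but inside the RefSeq body. That control peak lay within a single deleted peak of 1368 bases (6.38), where the control list had 3 separate peaks. The other 2 control peaks, 38.9 to 39.5 kb and 42.3 to 42.5 kb into the gene, were control-only and weak (3.23 and 3.63). The lncRNA 4932441J04Rik overlaps the lower end of the gene body, and 4 of the 6 deleted and 5 of the 8 control peaks touch it, so their gene cannot be assigned from position.

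Pcdh1, a delta-1 gene known from airway epithelium as well as brain, had the densest acetylation. Its window on chromosome 18 (gene body 38185914 to 38212048) held 15 deleted peaks, or 22.7 per 100 kb, and 10 control peaks, or 15.1 per 100 kb, above the protein-coding medians of 4.42 and 3.09. List-only were 8 of 15 deleted peaks and 4 of 10 control peaks, beside 50.6% and 24.3% of the whole lists. The strongest peak lay at the lower end of the gene in both, at 38185296 to 38185990 (fold enrichment 5.71) in deleted and 38185248 to 38185931 (6.66) in control cells. Sites formed as above numbered 8, of which 4 were in both lists and 4 in the deleted list only, which reached fold enrichments of 2.52 to 3.33. About 10 kb below the gene the peaks of the 2 lists alternated without overlap, 2 deleted (2.69 and 3.69) and 3 control (3.57, 4.04 and 3.23), inside the lncRNA Gm38566. The protein-coding genes Arap3, Dele1, Pcdh12, Rnf14 and Gnpda1 lie within 200 kb, more than at any other member, so this acetylation need not belong to Pcdh1.

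**Figure D5:**
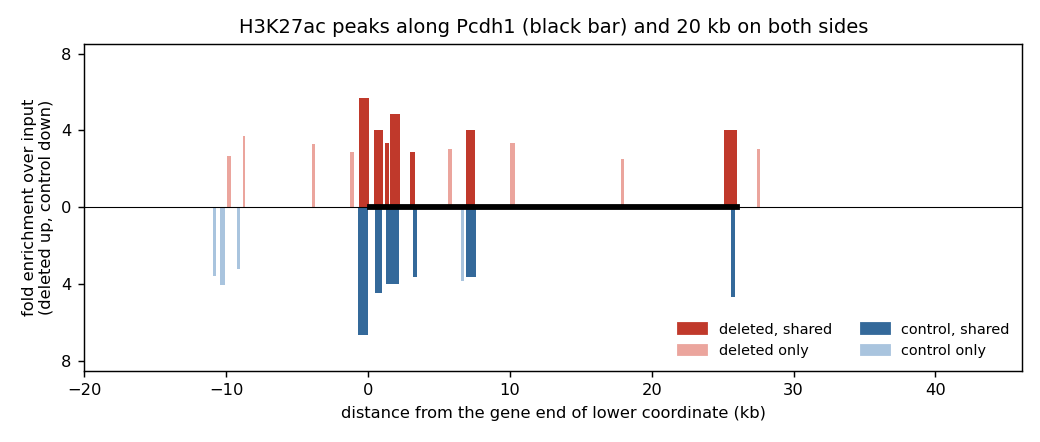
Peaks in the window of Pcdh1, as distance in kb from the gene end of lower coordinate (horizontal axis, gene as a black bar) and fold enrichment over input (vertical axis, deleted up and control down), with list-only peaks in pale colour. Shared peaks sit at both gene ends and up to about 7.5 kb into the gene, and the list-only ones are 8 deleted peaks of 2.52 to 3.69 and 4 control peaks of 3.23 to 4.04.

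Among the delta-2 genes, Pcdh10, which guides axon growth from striatum and recruits the WAVE regulator Nckap1, had by far the widest acetylation. It lies on chromosome 3 from 45378398 to 45434579, on the plus strand, starting at the lower end. The window held 8 deleted peaks, 7 of them shared, over 6.09 kb, and 10 control peaks, 9 of them shared, over 5.31 kb. One site ran from -2.27 to 5.53 kb of the start and held 7 deleted and 8 control peaks. Its strongest deleted peak, at 45377084 to 45378215, had a fold enrichment of 8.83 (95.1st percentile, −log10 q 31.2), and its strongest control peak, at 45377528 to 45378134, had 7.87 (91.7th percentile, −log10 q 21.2). Both lay upstream of the start. The widest peak of the family, 2086 bases at 45379991 to 45382076 (7.89) in deleted cells, faced 2 control peaks of 927 and 1061 bases (5.45 and 6.66), so the lower deleted peak number here goes with fewer, wider peaks. The list-only peaks were 1 deleted at 5.19 kb (3.02) and 1 control at 8.25 kb (3.33) by summit. The lncRNA 2610316D01Rik ends at 45378260, just before the start, and overlaps 2 deleted and 3 control peaks.

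Pcdh18, whose tail binds the reelin adaptor Dab1, had 1 shared peak at its start and no other. Its body spans 49743291 to 49757383 on chromosome 3, minus strand. The deleted peak at 49756676 to 49757292 was 617 bases wide (fold enrichment 5.50, 82.9th percentile) and the control peak at 49756710 to 49757227 was 518 bases wide (4.40, 59.2nd percentile). Both began just inside the gene, with the summit 0.303 kb and 0.279 kb after the start.

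Pcdh19, the X-linked member, whose human mutations cause an epilepsy with cognitive impairment mainly in females, likewise had a shared peak at its start. Its body spans 133582860 to 133689044 on X, minus strand. The peak at 133688549 to 133688937 in deleted cells had a fold enrichment of 4.20 (68.3rd percentile), and the peak at 133688501 to 133688839 in control cells had 5.25 (74.6th percentile). A further peak, 171 bases wide, at 133690030 to 133690200 with its summit at -1.11 kb, was in the deleted list only (3.86, −log10 q 6.06). The lncRNA Gm26851 overlaps the start and all 3 peaks. The reads were not split by allele in these files, so the active and inactive X cannot be told apart.

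Pcdh17, which organises synapses between cortex and basal ganglia, was acetylated in the deleted list only. Its body spans 84443563 to 84537565 on chromosome 14, plus strand. The single deleted peak, at 84445714 to 84446229, was 516 bases wide with a fold enrichment of 3.86 (60.1st percentile, −log10 q 6.06) and began 2.15 kb after the start. The control list had 0 peaks in the window, and its nearest peak to the gene body lay 1859 kb away. This was the widest and joint most enriched of the 20 deleted-only peaks at members, beside the upstream peak of Pcdh19. It remained when the deleted list was shortened to the length of the control list by −log10 q.

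Pcdh20, on chromosome 14 from 88464743 to 88471396, minus strand, likewise had 1 deleted and 0 control peaks. That peak, 194 bases at 88469452 to 88469645, was weak, with a fold enrichment of 2.85 at the 12.9th percentile of its list and −log10 q of 2.67. It began 1.75 kb after the start. It was absent from the deleted list shortened to the length of the control list. The nearest control peak to the gene body lay 1047 kb away.

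Pcdh8, an activity-induced protein that promotes the uptake of N-cadherin at synapses and patterns paraxial mesoderm, had no peak. Its body spans 79766772 to 79771312 on chromosome 14, minus strand. The nearest peaks were a deleted peak 88.6 kb (3.69) and a control peak 89.2 kb (3.83) from the gene body. A missing peak means that none passed the authors' limit at this depth, not that the mark was absent.

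From 20 to 200 kb outside the gene body, neither list had a peak at 6 of 9 members (Pcdh9, Pcdh10, Pcdh17, Pcdh18, Pcdh19, Pcdh20), against 12.0% of 21631 protein-coding genes. No other protein-coding gene lay within 200 kb of 6 members (Pcdh7, Pcdh9, Pcdh10, Pcdh17, Pcdh18, Pcdh20), against 2.18% of protein-coding genes. At Pcdh7 that flank held 1 deleted peak (3.00) and 0 control peaks, at Pcdh8 it held 5 deleted and 4 control peaks, and at Pcdh1 it held 42 deleted peaks, up to 13.7, and 28 control peaks, up to 10.3.

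Summed by group, the 3 delta-1 members had 40 deleted peaks, of which 40.0% (24.9 to 56.7) were list-only, and 33 control peaks, of which 27.3% (13.3 to 45.5) were. The 5 delta-2 genes had 12 deleted peaks, 3 of them list-only (interval of the share 5.49% to 57.2%), and 12 control peaks, 1 of them list-only (0.211% to 38.5%). These intervals overlap and hold the shares of the whole lists. The median fold enrichment was 3.68 in deleted and 4.04 in control cells for delta-1, and 4.37 and 5.02 for delta-2. The delta-2 values rest mainly on Pcdh10, which held 8 of the 12 deleted and 10 of the 12 control peaks, while Pcdh8 held none. As sites, the family had 29, of which 17, or 58.6% (38.9 to 76.5), were in both lists, against 47.9% of all 58538 sites. Sites of the deleted list only numbered 9, against 40.2% of all, and of the control list only 3, against 11.9%.

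Genes related to these protocadherins by family or partnership were examined as 4 lists. Of all protein-coding windows, 68.5% had peaks in both lists and 25.7% in neither. Of the other non-clustered protocadherins, the 3 listed (Pcdh11x, Pcdh12, Pcdh15) had window peaks in both lists, with 25 deleted and 18 control peaks in sum. Pcdh12, an endothelial protocadherin next to Pcdh1, reached a fold enrichment of 13.7 in deleted and 10.3 in control cells, Pcdh15, of the inner-ear tip link, 5.33 and 4.50, and Pcdh11x, an X-linked delta-1 gene not among the 9 members, 4.37 and 4.40. Of 16 classical cadherins, which bind cells more strongly, 10 had peaks in both lists and 5 in neither. Cdh20 (18.5 in deleted and 17.6 in control cells), Cdh4 (13.6 and 13.1) and Cdh22 (10.4 and 7.47) led, and Cdh3 had 2 peaks in the deleted list only, up to 3.19. Of 6 FAT and DCHS cadherins, giant proteins of planar cell polarity, 4 had peaks in both lists. They were led by Dchs1 (11.2 in deleted and 11.7 in control cells), Fat1 (9.23 and 9.89) and Fat4 (7.89 and 5.85), while Fat2 had 1 peak in the control list only (3.23). The 12 genes of the WAVE complex, part of the actin machinery, and of other cytoplasmic partners had peaks in both lists throughout. The highest were Wasf1 (14.9 in deleted and 12.8 in control cells), Abi1 (13.1 and 15.5) and Taok2 (12.4 and 11.1). These fold enrichments are the highest in each window, which can also hold neighbouring genes. Within 1 kb of an annotated start, 5 of 10 classical cadherins and 2 of 5 FAT and DCHS genes (Fat3, Fat4) had peaks in both lists. The same held for 7 of 8 genes of the WAVE list and 0 of 1 other protocadherins, against 49.8% of protein-coding starts. The median difference, deleted minus control peaks, was 0.5 for these 12, 0 for the classical cadherins, 2 for the FAT and DCHS genes, 2 for the other non-clustered protocadherins and 1 for protein-coding windows.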

How the data were processed

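H3K27ac ChIP-seq was made from 1 Smchd1 del/del and 1 Smchd1 control culture, each with its own input. The submitters' processing notes name bcl2fastq, Bowtie 0.12.9 and the build mm10. Per the file headers, the authors' caller was MACS2 2.1.0.20140616 in narrow mode, with the input of the same culture as control. Its q-value cutoff was 0.05, duplicates beyond 1 tag were dropped, and the bigger of ChIP and input was sampled down. The deposited lists give each peak's width in bases as an other measure, the signal (pileup of tags) at the summit, −log10 values of p and q, and fold enrichment, a ratio to the local input background with no scaling between libraries. A pileup of few tags makes fold enrichment coarse.

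Peaks on chromosomes 1 to 19 and X were used. Peaks that met the other list by 1 base or more are called shared, all others list-only. Genes, starts and promoters were from RefSeq on GRCm38.p6, whose chromosomes are those of mm10. Of several starts the most upstream in the promoter table was used. Intervals are 95% Clopper-Pearson ones, for shares and, through the share of deleted peaks, for ratios, and cover counting error only. With 1 library per group there was no test. Overlap and window counting, tested on 5700 simulated features, recovered the 4 planted numbers exactly. The members, lists and tests were chosen with earlier results of these data known. Every member is named. In related lists the 3 genes with the highest deleted fold enrichment and each gene with peaks in 1 list only are named. Alternatives were window, overlap rule, fold and q limits, and lists of equal length. Computations used Python 3.11.15 with pandas 2.3.3 and scipy 1.17.1.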

Additional observations from a re-analysis of the deposited data

How the results depend on the processing

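No paired analysis was possible because each group has 1 library. The ratio of deleted to control peaks at the members stayed within its interval under each alternative run, from 0.911 in lists of equal length and 0.929 with peaks under 5-fold enrichment left out to 1.21 with windows of 5 kb. It was thus below 1 under 2 settings, for which the ratios over all peaks were 1 and 1.04. The deleted-only share moved to 22.6% when a control peak within 500 bases counted as shared (38.3% over all peaks), to 15.4% with that fold limit (26.9%) and to 24.4% in lists of equal length (38.3%). The control-only share moved to 11.1% with the 500-base rule (15.3%) and to 7.14% with the fold limit (19%). The other alternatives, including leaving out Pcdh9 or Pcdh1, which was added after the data were seen, kept both shares within the intervals of the reported values. Among them, the deleted-only share was 50.9% when at least 50% of a peak had to be covered (60.3% over all peaks). The whole-list share lay above the members' interval with the 500-base rule (22.6%, 12.3 to 36.2, against 38.3%), in windows of 0 and 5 kb and without Pcdh1. This is no test, because neighbouring peaks are not independent and the whole list was not matched by distance from gene starts. Of 72 per-member differences, none left its interval, which spans 0 for every member. These intervals are wide beside the peak numbers (-5.67 to 14.4 at Pcdh1), so staying within them says little about stability. By sign alone, Pcdh1 turned to 9 deleted and 10 control peaks in lists of equal length, Pcdh7 to 6 and 5 at −log10 q of at least 5, and Pcdh19 to 0 and 1 with the fold limit. The Pcdh17 peak was lost at that fold limit but not in lists of equal length, while the Pcdh20 peak was lost under both. The deleted library had 1.28 times the filtered tags of the control library, and the part of depth in the list-only peaks was not tested beyond these settings.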

Other observations

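Genes most like the 3 members with the most peaks were found over the 2 libraries, among protein-coding genes with a window length within 1.5 times, by distance between square roots of the numbers of shared and list-only peaks. For Pcdh9, among 150 such genes, they were Lrrc4c (19 deleted and 18 control peaks), Cdk14 (21 and 19) and Nlgn1 (19 and 11). For Pcdh1, among 13292, they were Ipo13 (14 and 10), Prob1 (14 and 10) and Baiap2l2 (15 and 10). For Pcdh10, among 6510, they were Kpnb1 (8 and 10), Jam2 (8 and 9) and Foxj2 (9 and 9). With 2 libraries this likeness rests on 4 peak numbers per gene.

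On chromosome 14, Pcdh17 and Pcdh20 each had a single peak after the start, in deleted cells only, and no peak of either list from 20 to 200 kb outside the gene. Peaks in the deleted list only were found in 5.13% of protein-coding windows, which were not limited to those with a single deleted peak. The Pcdh20 peak was lost in lists of equal length. The other members on chromosome 14 differed: Pcdh9 had 19 deleted and 15 control peaks, and Pcdh8 had none. The present files hold 1 library per culture and no read counts at positions without a peak, so whether control cells had signal below the limit there was not tested.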
